A study of Sus scrofa with 6 samples.

Results

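Transcripts of 3 genes of energy metabolism, ATP5G1, GOT1 and ACADS, were followed in pig (Sus scrofa) blastocysts. They were found as every probe whose platform annotation symbol is one of these names. Each gene had 1 probe, so the set is 3 of 175 named genes and 3 of the 20400 probes on the array, of which 178 carry a gene name. ATP5G1 is probe 13347, GOT1 is probe 389 and ACADS is probe 9029. All 3 were measured on all 6 arrays, as were 5431 probes in total (26.6%) and 56 of those with a gene name.

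The RNA came from blastocysts labelled day 5, described for the series as day 5 to 6, and the labels name no treatment, genotype or other stage. The 3 biological replicate RNA samples, numbered 1, 2 and 3 as in the labels, were compared in a loop of 2-colour arrays. Each pair of RNA samples was hybridised on 2 arrays with the dyes exchanged. Arrays 1 and 2 held RNA samples 1 and 2, arrays 3 and 4 held 1 and 3, and arrays 5 and 6 held 2 and 3. The odd-numbered array of each pair had the lower-numbered RNA sample in Cy5. The sources used here do not give the breed, the number of embryos in an RNA sample or how embryos were obtained. RNA passed through 2 rounds of T7 amplification before labelling, per the labels' protocols. The only question the design poses for these genes is how far 3 replicate RNA samples of one stage differed.

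The 3 genes belong to different parts of energy supply. Mitochondria oxidise pyruvate, amino acids and fatty acids, pass the electrons to the respiratory chain, and use the resulting proton gradient to drive ATP synthase. ATP5G1 encodes a form of subunit c, which builds the proton-carrying ring of that enzyme in the inner membrane. GOT1 encodes the cytosolic aspartate aminotransferase, which exchanges amino groups between aspartate and glutamate and is a step of the malate-aspartate shuttle that carries reducing equivalents into mitochondria. ACADS encodes short-chain acyl-CoA dehydrogenase, which opens the oxidation of the shortest fatty acyl chains in the mitochondrial matrix. Pig oocytes and early embryos are known for their large stores of lipid droplets, and the malate-aspartate shuttle is known to be used by mouse embryos before implantation.

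Each deposited value is a log2 ratio of the 2 channels of an array, read here as Cy5 over Cy3. That direction is not stated by the authors, and the reverse would turn the sign of every difference below. A ratio says nothing about how strongly a gene is expressed, only how the 2 RNA samples on an array compare. The median over the 5431 probes differed between arrays, from -2.50 on array 1 to 0.45 on array 2, and was subtracted. A difference is therefore relative to the median probe. Without this step the median fitted difference was 1.25 between RNA samples 2 and 1, 0.23 between 3 and 1, and -0.92 between 3 and 2. The share of probes that could be read also differed. On array 1, 64.3% of all probes had no measured ratio, against 1.02% on array 4. The scaled median absolute deviation over the 5431 probes was 1.41 on array 1 and 1.31 on array 6. On the other arrays it was 0.65 to 0.87, so equal log2 values do not rank equally on all arrays. Arrays 3 and 4 correlated at 0.63 over the tested probes before turning, while arrays 1 and 2 correlated at -0.20 and arrays 5 and 6 at -0.40. With exchanged dyes a difference between RNA samples gives opposite signs, and a dye effect gives the same sign. As deposited, the standard deviation in the pair 3 and 1 was 0.31 for the sample difference and 0.65 for the dye effect. A dye effect beside a small sample difference and a reversed array 3 cannot be told apart here. If array 3 alone had been deposited the other way round, what is read as dye and what is read as sample would change places in that pair. Values with array 3 turned are therefore given for RNA samples 3 and 1, a setting added after the data had been seen.

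With all arrays read as deposited, on every array that compared them, ATP5G1 was below RNA sample 1 in both other RNA samples and was lower in 3 than in 2, but no difference passed the test. Its centred log2 ratios of Cy5 over Cy3 were 2.19, -0.30, 0.53, -0.44, 0.49 and -0.71 on arrays 1 to 6. In each pair the sign changed when the dyes were exchanged, so the arrays of all 3 pairs agreed on which RNA sample was higher. Among all tested probes 11.9% did so. Arrays 3 and 4 gave 0.53 and -0.44 for 3 minus 1, and so disagreed, with array 3 turned. Array 1 stood highest and had a much wider gap than its partner, array 2. On array 1, which had the widest spread, 2.19 was at the 85.8 percentile of absolute centred ratios.

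Turned to one direction, RNA sample 2 minus 1 gave log2 differences of -2.19 on array 1 and -0.30 on array 2. RNA sample 3 minus 1 gave -0.53 and -0.44, and RNA sample 3 minus 2 gave -0.49 and -0.71. The pair average, which is the sample difference, was -1.24 for 2 minus 1, -0.48 for 3 minus 1 and -0.60 for 3 minus 2. The dye effect, which is the part of a log2 ratio that both orientations share, was 0.94, 0.05 and -0.11 in the same pairs. By absolute size the dye effect was at the 79.3 percentile of tested probes in the first pair, and at the 6.55 and 13.6 percentiles in the others. The pair 3 and 1 gave a sample difference of 0.048 and a dye effect of -0.48 with array 3 turned.

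The 3 pair averages of ATP5G1 did not add up around the loop. The sum of 2 minus 1 and 3 minus 2 missed the value of 3 minus 1 by -1.36, while the median absolute gap over all tested probes was 0.65. The fit in limma spreads this gap over the 3 pairs, so its values differ from the pair averages. The SE of 0.43 is the same for all tested probes, so it and the intervals do not reflect a gene's own loop gap. The fitted log2 difference was -0.79 ± 0.43 (SE) for 2 minus 1 with an adjusted p of 0.18 in limma. For 3 minus 1 it was -0.94 ± 0.43 (95% interval -1.78 to -0.10), with an adjusted p of 0.81 in limma. Ranked by absolute size among tested probes, it was at the 96.5 percentile. For 3 minus 2 it was -0.15 ± 0.43, with an interval of -0.99 to 0.69 and an adjusted p of 0.831 in limma.

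The size of the ATP5G1 difference between RNA samples 2 and 1 rested on array 1. Without array 1 the fitted value was -0.14, and without array 2 it was -1.44. Uncentred, it turned to 0.42. After centring on the tested probes whose probe number lay within 100 of its own, it was -1.20 and passed (adjusted p 0.0209 in limma), a setting chosen after the data had been seen. The fitted value of 3 minus 1 kept its sign in all 14 alternative settings tried for it, between -1.26 and -0.53, and passed in none of them. Some of these settings change only the error estimate or the probes tested, so they return the reported value and cannot change its sign. The fitted value of 3 minus 1 was -0.58 with array 3 turned.

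**Figure D1:**
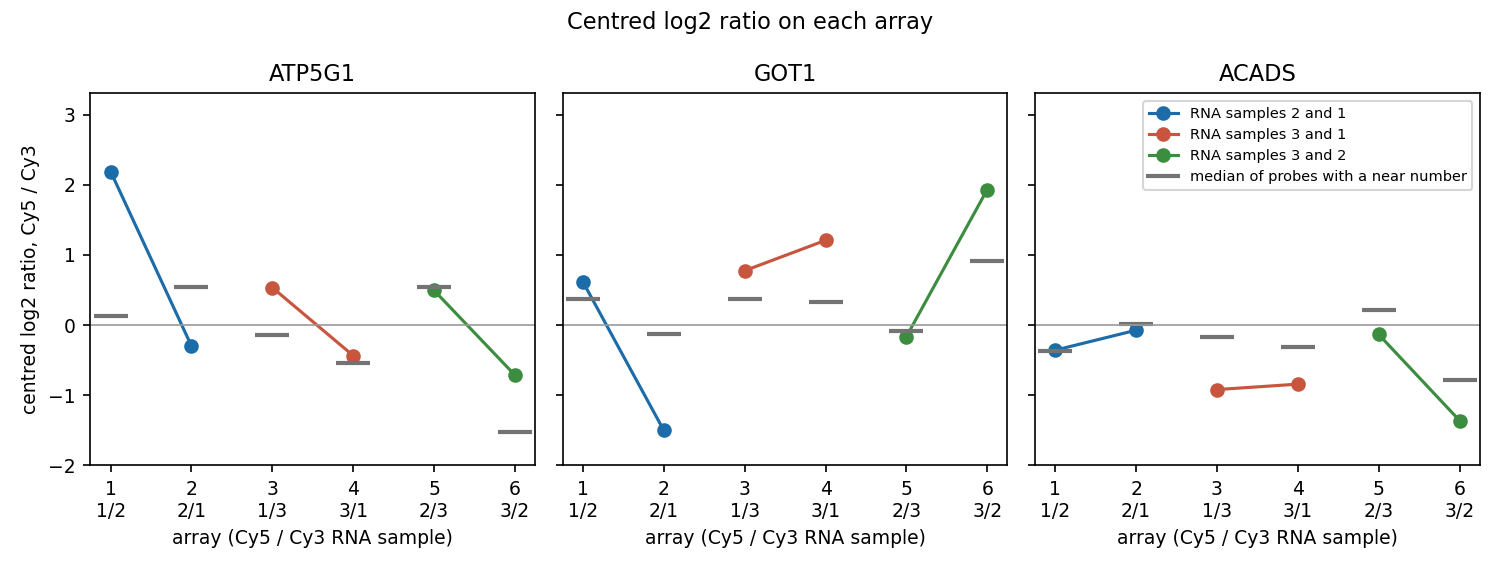
Centred log2 ratio of Cy5 over Cy3 (vertical axis) on arrays 1 to 6 (horizontal axis, with the Cy5 and Cy3 RNA sample under each array number). Lines join the 2 arrays of a dye-swapped pair: a line that crosses 0 shows a difference between RNA samples, and a flat line away from 0 shows a dye effect if both arrays are read in the deposited direction. ACADS on arrays 3 and 4 (-0.92 and -0.84) is flat as deposited, and would cross 0 with array 3 turned. Grey dashes are the medians of tested probes with a probe number within 100.

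GOT1 was higher in RNA sample 3 than in 2 in the reported fit, a call that passed in 3 of 14 alternative settings. The difference of GOT1 between RNA samples 2 and 1 did not pass. Its centred log2 ratios of Cy5 over Cy3 were 0.62, -1.50, 0.77, 1.21, -0.17 and 1.93 on arrays 1 to 6. The 4 arrays that held RNA sample 2 all placed it below the other RNA sample, although by only 0.17 on array 5. Arrays 3 and 4 were both above 0 despite the exchanged dyes and so went opposite ways between RNA samples 3 and 1. They went the same way, at 0.77 and 1.21, with array 3 turned.

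Between RNA samples 3 and 2, arrays 5 and 6 gave turned log2 differences of 0.17 and 1.93. Array 6 had a wide spread over the tested probes, and 1.93 was at the 89.1 percentile of absolute centred ratios there. The fitted difference was 1.12 ± 0.43 (SE; 95% interval 0.28 to 1.96), or 2.18-fold higher in RNA sample 3, with an adjusted p of 0.0447 in limma. This was the 1 of 9 differences of the 3 genes that passed. In the same comparison 20.7% of all tested probes passed, and 6.06% of all tested probes passed as higher in RNA sample 3. By size, GOT1 ranked at the 80.3 percentile of absolute fitted values. A call of this size was thus common among the tested probes.

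The GOT1 call was not stable. It passed in 3 of 14 alternative settings, which were those without array 3, without array 5, or with the sign of array 3 turned. It was lost without array 1, 2, 4 or 6, at fitted values of 1.58, 0.66, 0.87 and 0.72. It was lost as well when the 6 arrays were fitted singly with a dye term, where the value was the same and the adjusted p in limma was 0.108. In that fit 12.1% of tested probes passed between RNA samples 3 and 2. With the arrays brought to equal spread the value was 0.98 and did not pass either (adjusted p 0.0617 in limma). Over the 14 settings the fitted value stayed above 0, between 0.21 and 1.58, and the adjusted p in limma ran from 0.0135 to 0.697. Settings that change only the error estimate or the probes tested return the reported value and cannot change its sign.

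Between RNA samples 2 and 1, arrays 1 and 2 gave turned log2 differences of -0.62 and -1.50 for GOT1. The fitted difference was -0.98 ± 0.43 (SE; 95% interval -1.82 to -0.14), with an adjusted p of 0.0864 in limma, where 19.5% of tested probes passed and 5.63% did so with single arrays. It ran from -1.90 without array 1 to -0.06 without array 2, and turned to 0.22 with uncentred values. Between RNA samples 3 and 1, arrays 3 and 4 gave -0.77 and 1.21. The fitted difference was 0.14 ± 0.43 (95% interval -0.70 to 0.98), and 0.203% of tested probes passed there, 11 in all. With single arrays limma called 0 there, with 173 at an unadjusted p under 0.05. With array 3 turned the fitted value was 0.66 (adjusted p 0.531 in limma). The pair averages of GOT1 closed around the loop to within -0.23, a smaller gap than that of ATP5G1.

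The dye effect of GOT1 was -0.44 in the pair 2 and 1, 0.99 in the pair 3 and 1 and 0.88 in the pair 3 and 2. It was at the 88.0 and 84.7 percentiles of absolute dye effects in the last pairs, and had the other sign in the first. In the pair 3 and 1 it was 0.22 with array 3 turned. Its mean of 0.48 ± 0.32 (SE) over the 3 pairs did not pass the dye test (adjusted p 0.368 in limma). Over the array 0.0184% of tested probes passed that test, 1 probe in all, although 1470 reached an unadjusted p under 0.05. With single arrays the number called was also 1. The dye effect of GOT1 passed when arrays 1 and 2 were left out, at 0.94 (adjusted p 0.0381 in limma).

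The whole numbers recovered for GOT1 were small. Raised as a power of 2, the deposited values are mostly ratios of whole numbers, and the smallest such numbers show the least signal that can lie behind a ratio. A common factor of both numbers is lost in this step and their unit is not known. For GOT1 the numbers for Cy5 and Cy3 were 19 and 70 on array 1, 55 and 114 on array 2, and 261 and 139 on array 3. They were 212 and 81 on array 4, 188 and 161 on array 5, and 97 and 48 on array 6. A change of 1 in the smaller number on array 1 would move the log2 ratio by 0.07. A filter that asked for at least 20 in both channels on all arrays therefore left out GOT1, through array 1 alone.

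The recovered numbers were larger for the other genes. For ACADS the smaller number was 151 on array 2 and between 707 and 1640 on arrays 3 to 6. For ACADS on array 1, and for ATP5G1 on every array but array 5, no whole numbers up to 5000 gave the ratio. On array 5 ATP5G1 had 3767 for Cy5 and 2043 for Cy3. These numbers describe how finely each ratio is resolved, and levels of different probes are not compared through them.

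ACADS showed no difference between RNA samples that passed, and neither did its mean dye effect. Its centred log2 ratios of Cy5 over Cy3 were -0.36, -0.07, -0.92, -0.84, -0.13 and -1.36 on arrays 1 to 6. All 6 were below 0, whichever RNA sample was labelled with Cy5. Turned to one direction, the 2 arrays therefore disagreed in every pair, which 16.1% of tested probes did. Arrays 3 and 4 agreed, at -0.92 and -0.84 for 3 minus 1, with array 3 turned.

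For ACADS, RNA sample 2 minus 1 gave turned log2 differences of 0.36 and -0.07 on arrays 1 and 2. RNA sample 3 minus 1 gave 0.92 and -0.84, and RNA sample 3 minus 2 gave 0.13 and -1.36. The pair averages were 0.14, 0.04 and -0.61, against dye effects of -0.22, -0.88 and -0.75. With array 3 turned, the pair 3 and 1 had instead a sample difference of -0.88 and a dye effect of 0.039. As deposited, the dye effect averaged over the 3 pairs was -0.62 ± 0.26 (SE), with an unadjusted p of 0.0397 and an adjusted p of 0.162 in limma. It was below 0 in all 3 pairs as deposited, and the mean was below 0 in all 11 alternatives tried for it, from -0.99 to -0.31, and passed in none of them. Alternatives that change only the error estimate or the probes tested return the reported mean and cannot change its sign.

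The fitted log2 differences of ACADS were 0.31 ± 0.43 (SE) for 2 minus 1, -0.13 ± 0.43 for 3 minus 1 and -0.44 ± 0.43 for 3 minus 2. Their 95% intervals were -0.53 to 1.15, -0.97 to 0.71 and -1.28 to 0.40, and each of them held 0. The adjusted p-values in limma were 0.638, 1.00 and 0.474. With array 3 turned, ACADS had -0.74 for 3 minus 1 (adjusted p 0.455 in limma) and a mean dye effect of -0.31. With uncentred values ACADS passed at 1.52 for 2 minus 1 and at -1.36 for 3 minus 2, while the median probe was at 1.25 and -0.92 in those comparisons.

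**Figure D2:**
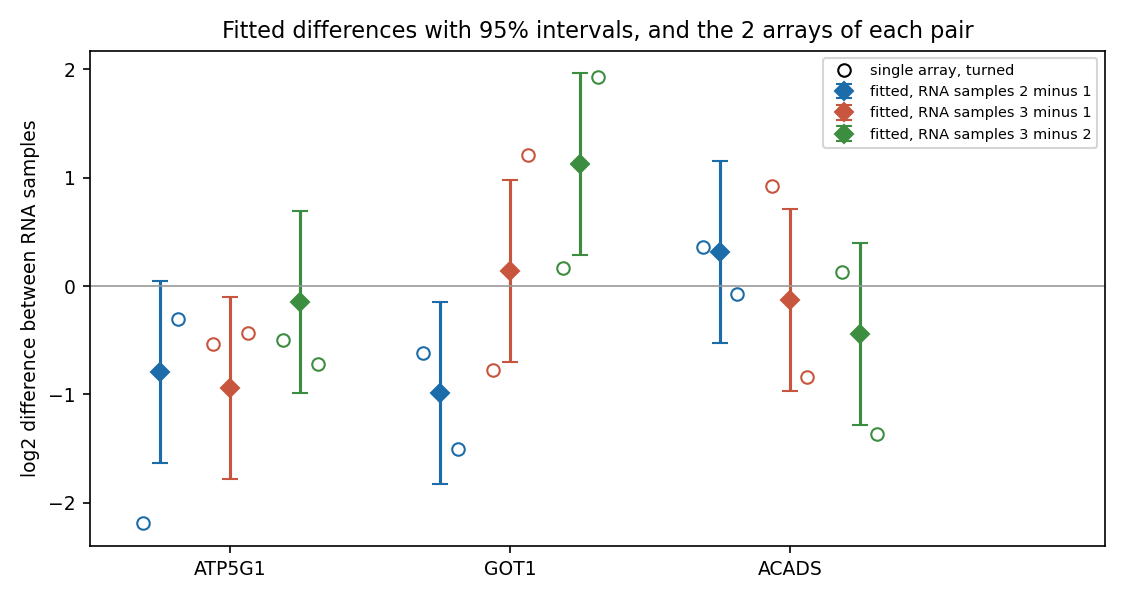
Log2 difference between RNA samples (vertical axis) for the 3 genes and 3 comparisons. Diamonds are fitted values with 95% intervals, and open circles are the 2 single arrays of each pair turned to the same direction. All intervals use the same variance, shared by all tested probes. Of the 9 intervals, those of GOT1 for 3 minus 2 (0.28 to 1.96) and 2 minus 1 (-1.82 to -0.14) and that of ATP5G1 for 3 minus 1 (-1.78 to -0.10) leave out 0 before adjustment over probes.

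With all arrays read as deposited, both arrays of a pair agreed on the direction in 3 of 3 pairs for ATP5G1, 2 of 3 for GOT1 and 0 of 3 for ACADS. With array 3 turned it was 2 of 3 for ATP5G1, 3 of 3 for GOT1 and 1 of 3 for ACADS, so the order of the genes rests on that array. As deposited, all 3 pairs agreed for 11.9% of tested probes, 2 of them for 36.7% and none for 16.1%. These shares were 27.2%, 43.3% and 3.96% with array 3 turned. Over all tested probes the arrays agreed for 57.3% in the pair 2 and 1, for 25.2% in the pair 3 and 1 (74.7% with array 3 turned) and for 61.8% in the pair 3 and 2.

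The median absolute dye effect of the 3 genes was 0.44 in the pair 2 and 1, 0.88 in the pair 3 and 1 and 0.75 in the pair 3 and 2. Over all tested probes it was 0.53, 0.40 and 0.42. With array 3 turned, the pair 3 and 1 gave 0.22 for the 3 genes and 0.15 over all tested probes. The median absolute fitted difference of the 3 genes was 0.79, 0.14 and 0.44 in the same order, against 0.60, 0.22 and 0.61 over all tested probes. The genes showed no common direction. Between RNA samples 2 and 1, ATP5G1 and GOT1 were below 0 and ACADS above it, and between 3 and 2 GOT1 was above 0 and the others below it.

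**Figure D3:**
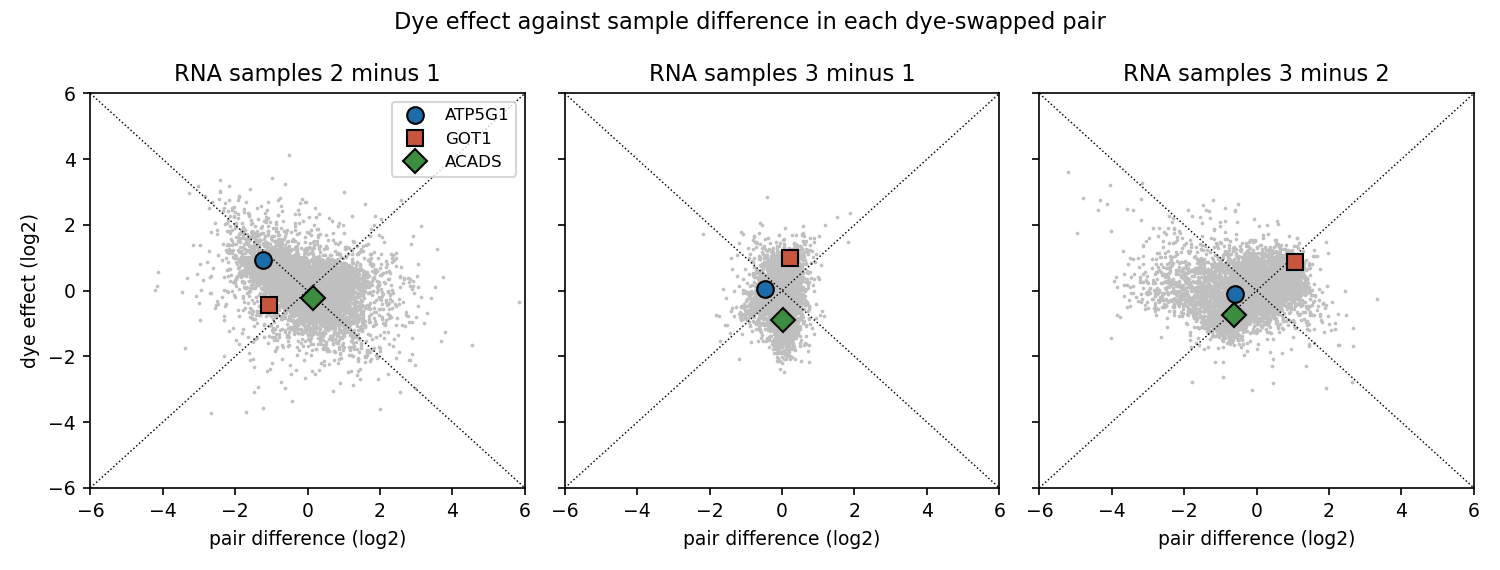
Dye effect (vertical axis, log2) against the difference between RNA samples (horizontal axis, log2) in each dye-swapped pair. Grey points are the 5431 tested probes, and on the dotted lines both are equal in size, so a gene above or below the crossing lines had arrays that disagreed. ACADS lies on the disagreeing side in all 3 pairs, GOT1 in the pair 3 and 1, and ATP5G1 in none, with arrays read as deposited. Turning array 3 exchanges the axes of the pair 3 and 1.

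Expressed around the mean of the 3 RNA samples, the fitted log2 level of ATP5G1 was 0.58 in RNA sample 1, -0.21 in 2 and -0.36 in 3. The level of GOT1 was 0.42 in RNA sample 3, 0.28 in 1 and -0.70 in 2. That of ACADS was 0.25 in RNA sample 2, -0.06 in 1 and -0.19 in 3. In these orders the neighbours 2 and 3 of ATP5G1, 3 and 1 of GOT1, and both neighbouring pairs of ACADS differed by less than the standard error of 0.43. In the F test over all 3 RNA samples none of the 3 passed, where 21.8% of tested probes did. The adjusted p in limma was 0.0696 for GOT1, 0.179 for ATP5G1 and 0.755 for ACADS, and 8.53% of probes passed in the fit of single arrays.

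**Figure D4:**
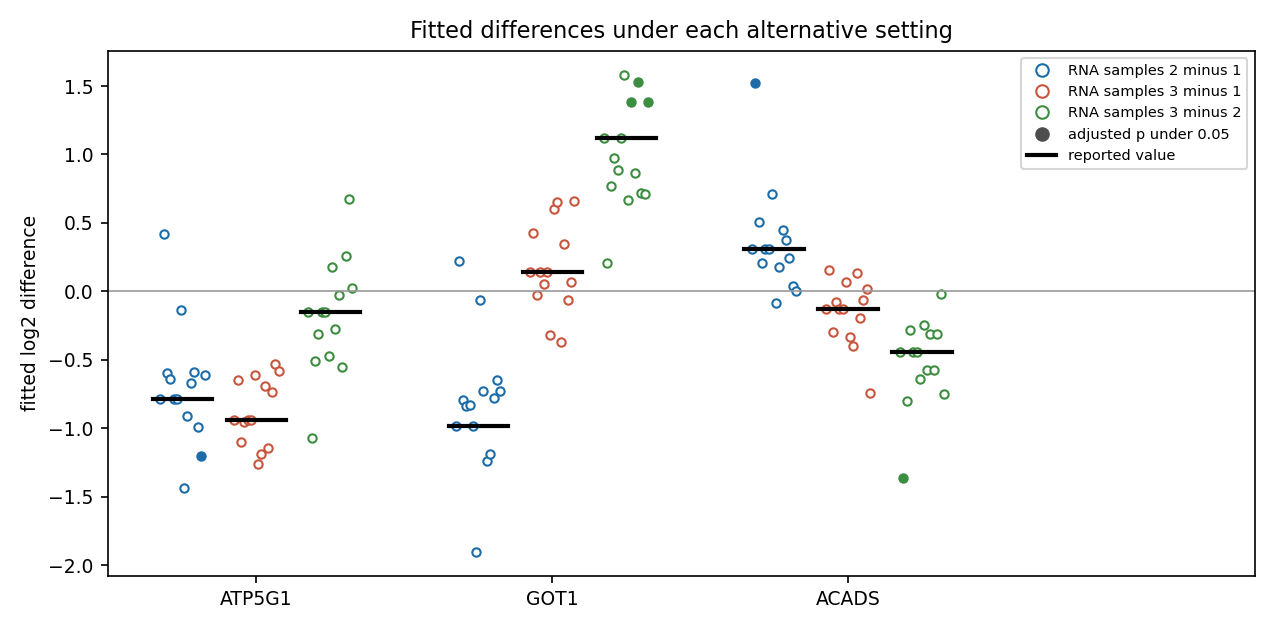
Fitted log2 difference (vertical axis) of the 3 genes in the 3 comparisons under each alternative setting. Circles are alternatives, filled where the adjusted p was under 0.05, and black bars are the reported values. The values of GOT1 for 3 minus 2 all lie above 0, from 0.21 to 1.58, with 3 of them filled.

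Few other genes of the same pathways could be read on this array. Of 72 genes of ATP synthase and the respiratory chain ATP5G1 alone had a probe with an identical symbol, and of 44 genes of fatty acid oxidation and ketone bodies ACADS alone. Lists of 34 genes of the citrate cycle and 27 of glycolysis had none. Of 63 genes of the malate-aspartate shuttle and amino acid metabolism, GOT1 and MAOA had a probe, and GOT1 between RNA samples 3 and 2 was their only call. MAOA encodes monoamine oxidase A of the outer mitochondrial membrane, which breaks down amines made from amino acids. Its fitted log2 difference was -0.61 for 2 minus 1, 0.14 for 3 minus 1 and 0.75 for 3 minus 2, and none passed (adjusted p 0.313, 1.00 and 0.208 in limma).

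Of 33 further genes of mitochondrial proteins, TSPO and PMAIP1 had a probe and TSPO alone was tested. TSPO, an outer membrane protein linked to cholesterol transport, also had its lowest value in RNA sample 2. Its fitted log2 difference was -3.12 for 2 minus 1 and 3.70 for 3 minus 2, with adjusted p-values of 2.62e-10 and 7.51e-15 in limma. With single arrays the adjusted p-values in limma were 0.00802 and 0.00231. GOT1 had the same direction as TSPO in both comparisons, at a smaller size. PMAIP1, a mitochondrial trigger of cell death, was measured on both arrays of the pair 3 and 1 only, with turned log2 differences of -0.55 and 0.98.

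The cell makeup of the RNA samples could hardly be checked, because a ratio gives no level and few markers were present. In bulk RNA, fewer cells of a type and less RNA per cell cannot be told apart. Of 10 trophectoderm markers PAG6 alone had a probe, with a fitted log2 difference of 1.04 for 2 minus 1 and -1.37 for 3 minus 2 (adjusted p 0.0682 and 0.0109 in limma). Where the fitted value of GOT1 was higher in RNA sample 3 than in 2, that of this placental glycoprotein gene was therefore lower. Of 8 cumulus and granulosa markers INHA alone was tested. INHA, which encodes the inhibin alpha subunit, was higher in RNA sample 2 than in 1 at a fitted log2 difference of 1.58 (adjusted p 0.0037 in limma, 0.151 with single arrays), where GOT1 had -0.98. The turned log2 differences of INHA for 2 minus 1 were 4.50 on array 1 and only 0.38 on array 2. For 3 minus 2 the fitted value of INHA was -0.43 (adjusted p 0.492 in limma). Both arrays of that pair had the opposite sign, at 0.15 and 0.71, with a pair average of 0.43. The fit spreads the loop gap over the pairs, so its values can differ from the pair averages. INHA passed the F test (adjusted p 0.00593 in limma). SAL1 was the 1 of 6 oviduct and uterus markers tested, at 0.17 for 3 minus 2. None of the inner cell mass, primitive endoderm or blood and immune markers was measured on all arrays. The part of cell makeup in the GOT1 differences was not tested.

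Likeness to other named genes was described as the root mean square difference over the 6 centred log2 ratios, among the 55 other named probes measured on all arrays. Nearest to GOT1 were MAOA (0.33), HAPLN1 (0.57), which encodes a link protein of the hyaluronan matrix, and PDZD11 (0.58). The median over the 55 was 1.54. Nearest to ACADS were PRM1 (0.28), a protamine of sperm chromatin, HRH4 (0.36), a histamine receptor, and LTA (0.41), the cytokine lymphotoxin alpha, with a median of 0.85. Nearest to ATP5G1 were TLR10 (0.54), a Toll-like receptor, IL17A (0.73), a cytokine, and XCR1 (0.78), a chemokine receptor, with a median of 1.34. Among themselves the 3 genes were at 1.53 for ATP5G1 and GOT1, 1.27 for ATP5G1 and ACADS, and 1.87 for GOT1 and ACADS. The nearest genes are the smallest of 55 values by selection, so the medians are the fairer comparison. The values 1.53 and 1.27 lay between the medians of their genes, and 1.87 lay above both. All values rest on the same 6 arrays and on 3 RNA samples.

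The nearest gene to GOT1 also had a nearby probe number. MAOA is probe 387 and GOT1 is probe 389. Over all tested probes, the median root mean square difference was 1.14 for pairs whose numbers differ by 2 and 1.33 for all pairs. It was 1.17 for numbers that differ by 1, 1.22 by 10 and 1.22 by 100. Tested probes with a number within 100 of GOT1, 133 of them, had a median centred log2 ratio of 0.92 on array 6, where GOT1 had 1.93. After these local medians were subtracted, GOT1 between RNA samples 3 and 2 had a fitted value of 0.71 and did not pass (adjusted p 0.216 in limma). For ATP5G1 the 42 tested probes with a number within 100 had a median of -1.52 on array 6, below its own -0.71. Its fitted value for 3 minus 2 then turned to 0.68 (adjusted p 0.245 in limma). For ACADS the 52 tested probes with a number within 100 had medians of -0.38, 0.01, -0.18, -0.32, 0.22 and -0.79 on arrays 1 to 6. After they were subtracted, ACADS had 0.02 on array 1 and stayed below 0 on the others. Its fitted values were then 0.039 for 2 minus 1 and -0.021 for 3 minus 2, and its mean dye effect was -0.38. What the probe number stands for on the slide is not given in the sources used here, and its part in these values was not tested.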

How the data were processed

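The authors deposited 1 value per probe and array, which behaves as a log2 ratio between channels. Its scale, direction, scanner and background correction are not stated in the labels or the file. Ratios that were whole numbers or their reciprocals (relative tolerance 1e-05) were taken as a channel at its floor and so not measured. The 5431 probes measured on all 6 arrays were centred on each array's median. The 2 arrays of a pair, which hold the same extracts, were turned and averaged, and limma 3.58.1 in R 4.3.3 fitted each probe's 3 averages, which left 1 residual degree of freedom. Moderation gave every probe the same variance in this fit, so a gene's SE and interval do not reflect its own loop gap. The Benjamini-Hochberg adjustment ran over the 5431 probes, with 0.05 as threshold. The p-values of the reported fit rest on how far the 3 pair averages fail to add up around the loop, as a variance pooled over probes. The gap between the 2 arrays of a pair does not enter them. Each comparison sets 1 RNA sample against 1 other, so the number of RNA samples limits the precision, as does the number of arrays.

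The dye effect of a pair is the mean of its 2 centred ratios, both as Cy5 over Cy3, and its test used the 3 pair values. Smallest whole numbers behind a ratio were found by continued fractions up to 5000, which succeeded for 95.3% to 98.9% of an array's measured values. Gene names came from the platform annotation, which gives 178 probes 1 symbol each and none several, and leaves 20222 unnamed here. Named genes are the 3 members, pathway and marker lists, and the 3 named genes nearest to each member. The members and lists were chosen with earlier results of these data known. The code was tested on simulated data. Alternatives were a fit of single arrays with a dye term, other or no centring, equal spread, loess, floor values kept, a filter on small recovered numbers, and each array left out.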

Additional observations from a re-analysis of the deposited data

How the results depend on the processing

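Alternatives kept the sign of GOT1 for 3 minus 2, of ATP5G1 for 3 minus 1 and of ACADS for 3 minus 2 in all 14 settings tried for each. Settings that change only the error estimate or the probes tested return the reported value and cannot change its sign. ACADS for 3 minus 2 ran from -1.36 uncentred to -0.021 with centring on tested probes with a number within 100. GOT1 for 3 minus 2 no longer passed with single arrays (1.12), no centring (0.21), centring on all probes measured on the array (0.77), equal spread (0.98), loess (0.89), floor values kept (1.12) or local centring by probe number (0.71). Uncentred values turned ATP5G1 (0.42) and GOT1 (0.22) for 2 minus 1, ACADS for 3 minus 1 (0.16) and the mean dye effect of ATP5G1 (-0.082), and ACADS then passed at 1.52 for 2 minus 1 and -1.36 for 3 minus 2. Centring on all probes measured on the array turned GOT1 for 3 minus 1 to -0.024. Local centring, added after seeing the data, turned ACADS for 3 minus 1 (0.018) and ATP5G1 for 3 minus 2 (0.68), and ATP5G1 passed for 2 minus 1 (-1.20). Turning array 3, also added later, gave 0.028 for ATP5G1 for 3 minus 2 and an adjusted p of 0.038 in the F test of GOT1. With 1 array left out in turn, GOT1 ran from 0.66 to 1.58 for 3 minus 2, from -0.37 to 0.65 for 3 minus 1 and from -1.90 to -0.06 for 2 minus 1. ACADS ran from -0.087 to 0.71 for 2 minus 1 and from -0.40 to 0.14 for 3 minus 1, and ATP5G1 from -0.55 to 0.26 for 3 minus 2. The adjusted p of the F test ran from 0.0485 to 0.858 for ATP5G1 and from 0.0326 to 0.901 for GOT1, each lowest without array 3. With 1 pair left out, the mean dye effect ran from -0.031 to 0.50 for ATP5G1 and from 0.22 to 0.94 for GOT1.

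Counts of probes called in limma also moved between settings. For 2 minus 1 the reported count was 1059, against 306 with single arrays, 2182 uncentred, 589 with centring on all probes measured on the array, 185 with loess, 655 of 2788 with the filter on small recovered numbers, 0 with floor values kept (2368 at an unadjusted p under 0.05) and 0 to 1328 without 1 array. For 3 minus 1 it was 11, against 0 with single arrays (173 unadjusted), uncentred values (72), loess (107) and floor values kept (108), 3 with centring on all probes measured on the array, 108 with equal spread, 37 with the filter on small recovered numbers, 27 with array 3 turned and 0 to 436 without 1 array. For 3 minus 2 it was 1123, against 656 with single arrays, 332 with loess, 0 with floor values kept (1862 unadjusted) and 186 to 1476 without 1 array. Centring also moved the split: for 2 minus 1 it was 585 higher and 474 lower as reported, 2172 and 10 uncentred and 480 and 109 with centring on all probes measured on the array. For 3 minus 2 it was 329 and 794, 5 and 1406, and 30 and 960. Loess gave 145 and 40, and 37 and 295. The F test count of 1184 became 463 with single arrays, 185 with loess, 0 with floor values kept (1482 unadjusted) and 0 to 1813 without 1 array, the 0 being without array 1 (1604 unadjusted). The dye count of 1 became 0 with uncentred values (1017 unadjusted), equal spread (1134), loess (1040) and floor values kept (1358), 447 with centring on all probes measured on the array, 441 with the filter on small recovered numbers, 4 with array 3 turned and 151 to 614 without 1 pair. The cause of these changes was not tested. Loess could not be fitted for ATP5G1 and ACADS, for which whole numbers were not recovered on every array, and the filter on small recovered numbers left out GOT1. The reported fit already averages the 2 dye-swapped arrays of each pair. No further replicate block was fitted, since all arrays belong to 1 group.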

Other observations

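Further metabolic genes on the array, picked from their symbols in the annotation, could be read best on arrays 3 and 4, which held RNA samples 3 and 1. None of PGK2, GAD1, GAD2, QDPR, UOX and PLIN1 was measured on both arrays of the pair 2 and 1, so none was tested. Values are log2 differences turned to 3 minus 1 on arrays 3 and 4. PGK2, the phosphoglycerate kinase of testis, had -0.59 and 0.46. UOX, which encodes urate oxidase, had 0.16 and 1.10. As deposited, arrays 3 and 4 agreed in direction for UOX and opposed each other for the other 5 genes, and with array 3 turned this is reversed. Over all tested probes these arrays agreed for 25.2% as deposited and for 74.7% with array 3 turned. QDPR, which recycles the cofactor of the aromatic amino acid hydroxylases, had -1.56 and 0.73. PLIN1, which encodes a coat protein of lipid droplets, had 0.18 and -0.22.

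The genes GAD1 and GAD2 encode the enzymes that make GABA from glutamate, the amino acid that GOT1 also handles. GAD1 had -1.02 and 0.34 for 3 minus 1, and 0.22 and 2.02 for 3 minus 2 on arrays 5 and 6. GAD2 had -0.41 and 0.73 for 3 minus 1, and -2.74 and 0.51 for 3 minus 2. PLIN1 had -0.43 and -1.22 for 3 minus 2, and QDPR had -0.50 and 1.68. In that pair the arrays agreed in direction for GAD1 and PLIN1 and opposed each other for GAD2 and QDPR. They agreed for 61.8% of tested probes.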
